A study of Mus musculus with 9 samples.

Results

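The SR and hnRNP splicing factors examined here, together with the SF3A, SF3B and U2AF subunits, are the 42 mouse genes whose array symbol starts with Srsf, Hnrnp, Sf3a, Sf3b or U2af, out of 19057 genes with a named probe. They comprise 10 SR proteins, 20 hnRNPs, 3 SF3A subunits, 6 SF3B subunits and 3 U2AF subunits, represented by 106 probes. Of the 42 genes, 39 had a probe above a log2 signal of 7.5, taken as the level of background, on at least 4 of the 9 arrays, and these entered the genotype test beside 8543 genes in all. The other 3 were Sf3b1, Sf3a2 and Srsf12.

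The arrays hold RNA of LSK cells (lineage-negative, Sca-1-positive, Kit-positive marrow cells, the compartment of stem cells and early progenitors) sorted from male C57BL/6 mice at the age of 12 weeks. Every mouse, of either genotype, had received 5-fluorouracil, which kills dividing cells, at 150 µg/g 6 days earlier, so no untreated arm enters the comparison. The groups were wild type (wt, 5 arrays) and Socs2-/- (4 arrays), the latter lacking a suppressor of cytokine signalling through JAK and STAT proteins. The RNA input was 250 pg for every array. The labels do not say which part of Socs2 is deleted, nor whether an array stands for a single mouse or for a pool. The p-values below therefore reflect array-to-array spread, part of which may be technical.

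SR proteins bind exons through RNA recognition motifs and, through their arginine- and serine-rich tails, help the splicing machinery to recognise the flanking splice sites. hnRNPs coat nascent transcripts and often, though not always, oppose exon inclusion, so that the balance between both classes sets many alternative exons. U2AF marks the 3′ splice site, and the U2 snRNP, of which SF3A and SF3B are parts, then settles on the branch site. In human myelodysplastic syndromes, clonal disorders of blood stem cells, SF3B1, SRSF2, U2AF1 and ZRSR2 are recurrently mutated, which makes this group of genes of interest in LSK cells.

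The promoters of the 4 members with the smallest p-values in the genotype comparison are shown first, since they stand on opposite sides of it: Srsf6, Hnrnph1 and Hnrnpr were lower in Socs2-/- arrays and Sf3b6 was higher. Each sequence holds the 250 bases before the first start listed in RefSeq (GRCm38.p6), 5′ to 3′ on the strand of the gene, and capitals mark matches, on either strand, to the motifs searched.
Srsf6 promoter (chr2:162931258-162931507, GRCm38.p6, + strand): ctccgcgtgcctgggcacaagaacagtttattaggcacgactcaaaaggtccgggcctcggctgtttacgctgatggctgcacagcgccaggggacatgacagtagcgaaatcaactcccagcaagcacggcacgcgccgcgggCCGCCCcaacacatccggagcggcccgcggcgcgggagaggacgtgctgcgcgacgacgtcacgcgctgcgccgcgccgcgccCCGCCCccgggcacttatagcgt
Hnrnph1 promoter (chr11:50376740-50376989, GRCm38.p6, + strand): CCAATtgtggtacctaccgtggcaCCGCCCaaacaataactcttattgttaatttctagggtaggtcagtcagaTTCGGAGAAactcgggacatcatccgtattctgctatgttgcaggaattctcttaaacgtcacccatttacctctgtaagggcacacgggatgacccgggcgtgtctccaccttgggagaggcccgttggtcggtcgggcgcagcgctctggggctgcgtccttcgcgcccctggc
Hnrnpr promoter (chr4:136310692-136310941, GRCm38.p6, + strand): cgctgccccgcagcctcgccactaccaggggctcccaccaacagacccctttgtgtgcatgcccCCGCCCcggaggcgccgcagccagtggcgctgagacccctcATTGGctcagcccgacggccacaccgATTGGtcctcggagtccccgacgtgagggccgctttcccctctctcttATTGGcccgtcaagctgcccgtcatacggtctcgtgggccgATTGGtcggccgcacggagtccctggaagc
Sf3b6 promoter (chr12:4817358-4817607, GRCm38.p6, + strand): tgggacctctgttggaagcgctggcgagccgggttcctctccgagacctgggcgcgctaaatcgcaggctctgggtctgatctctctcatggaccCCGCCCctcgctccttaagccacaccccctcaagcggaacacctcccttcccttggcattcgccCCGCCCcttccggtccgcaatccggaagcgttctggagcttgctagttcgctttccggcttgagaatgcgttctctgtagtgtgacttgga
The motifs were GGGCGG (the GC box of Sp1-type factors), CCAAT (bound by NF-Y), GGAAGT (an ETS core), TTCNNNGAA (the palindrome bound by STAT proteins), TATAAA and the palindrome of NRF1. Hnrnpr had 4 CCAAT matches and 1 GGGCGG match, Hnrnph1 had 1 match to CCAAT, 1 to GGGCGG and 1 to TTCNNNGAA, and Srsf6 and Sf3b6 had 2 matches each to GGGCGG. Of the 42 members, 37 had a promoter in the table. GGGCGG was present in 73.0% of these 37 promoters, against 58.8% of 6947 promoters of tested genes and 32.9% of all 27025 promoters. GGAAGT was present in 40.5% of member promoters, against 24.2% and 19.99%, and CCAAT in 48.6%, against 36.9% and 34.5%. TTCNNNGAA was found in 5.41% of member promoters, against 5.92% and 7.18%, TATAAA in 10.8%, against 6.71% and 13.0%, and the NRF1 palindrome in 0 of 37, against 1.68% and 0.781%. The median member promoter held 63.6% G or C and 22 CpG dinucleotides, against 59.6% and 16 for tested genes. These counts describe letters in a window and were not tested.

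As a check of the labels, Socs2 itself read 9.67 ± 0.40 in wild type (SD, n = 5) and 6.71 ± 0.10 in Socs2-/- (SD, n = 4), at least 4.51-fold lower, with a limma adjusted p of 0.036 and an exact two-sided permutation p of 0.0159, the smallest that this design allows. That adjusted p did not hold without Socs2-/- arrays 1 and 2 (0.188) or without most single arrays. Of 10 LSK markers with a probe, 7 were above 7.5 on all 9 arrays and Kit on 8, and Ly6a was not analysed here. Hlf was lower in Socs2-/- at -1.39 (limma unadjusted p = 0.045), or -0.48 without arrays 1 and 2. Procr had 0.93 (0.54 without arrays 1 and 2), Cd34 0.82 (0.37) and Slamf1 -1.40 (-1.09), with limma unadjusted p from 0.054 to 0.083. The remaining LSK markers lay between -0.58 (Gata2) and 0.16 (Mecom). Markers of other marrow cells were measured as well: Prtn3 (granulocytes), Lyz1 and Lyz2 (monocytes), Pf4 and Gp9 (megakaryocytes), Cd8a (T cells), Siglech and Bst2 (plasmacytoid dendritic cells) and the globin gene Hbb-bt were above 7.5 on all 9 arrays. Cd79b (B cells) was above it on 8 arrays, Mpo on 7, and Mcpt8, Hdc and Cpa3 (mast cells and basophils) on 6 each, whereas Epor, Elane, Pax5 and Ms4a2 were above it on 0. Of the tested markers of these cells 2 had a limma unadjusted p under 0.05, both higher in Socs2-/-: the alpha-globin gene Hba-a1 at 3.37 (2.30 without arrays 1 and 2), above 7.5 on 1 wild-type and 4 Socs2-/- arrays, and Csf1r at 1.46 (1.66). Other monocyte and macrophage markers had differences of -1.29 (Adgre1), -0.21 (Lyz1) and -0.10 (Lyz2). Mcpt8 had -2.08, Ctsg -1.58 and Mpo -1.58, with limma unadjusted p from 0.054 to 0.102. The other tested markers of mast cells and basophils went both ways, Hdc at 1.42 (limma unadjusted p = 0.108) and Cpa3 at -0.39. So did the other tested granulocyte markers, Prtn3 at 0.34, Camp at 0.26 and S100a9 at -0.64. The mean over 9 granulocyte markers lay between 7.65 and 9.56 in wild-type and between 7.46 and 8.44 in Socs2-/- arrays. The mean over 7 erythroid markers lay between 7.74 and 8.39 in wild-type arrays and between 8.0 and 9.89 in Socs2-/- arrays. Besides Hba-a1, the other tested erythroid marker, Hbb-bt, had 0.51 (limma unadjusted p = 0.376), or -0.36 without arrays 1 and 2. Wild-type and Socs2-/- means of untested markers were 7.57 and 7.38 (Klf1), 7.04 and 7.01 (Epor) and 8.08 and 7.997 (Alas2). Those of Gata1 (7.497 and 7.545) and Car1 (7.24 and 7.54) went the other way. The part of such other marrow cells in the splicing factor values was not tested. Socs2-/- arrays 1 and 2 stood apart: 31.1% and 31.0% of their probes were above 7.5, against 34.3% to 35.4% on the other 7 arrays, and their median correlations with other arrays were 0.52 and 0.49, against 0.65 to 0.72. Differences below are therefore followed by their values without those arrays.

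Across the whole group the SR proteins and hnRNPs read lower in Socs2-/-, in large part through arrays 1 and 2. The SF3A, SF3B and U2AF subunits did not share that direction. Of 29 SR protein and hnRNP genes tested, 27 had a difference below 0, with a median log2 difference (Socs2-/- minus wild type) of -0.55. Without Socs2-/- arrays 1 and 2 these were 22 of 29 and -0.22. For the 10 tested SF3A, SF3B and U2AF genes, 4 differences lay below 0 and the median was 0.16, or 3 and 0.22 without Socs2-/- arrays 1 and 2. Over all 8543 genes 59.5% of differences lay below 0, with a median of -0.18, or 52.0% and -0.03 without those arrays.

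**Figure D1:**
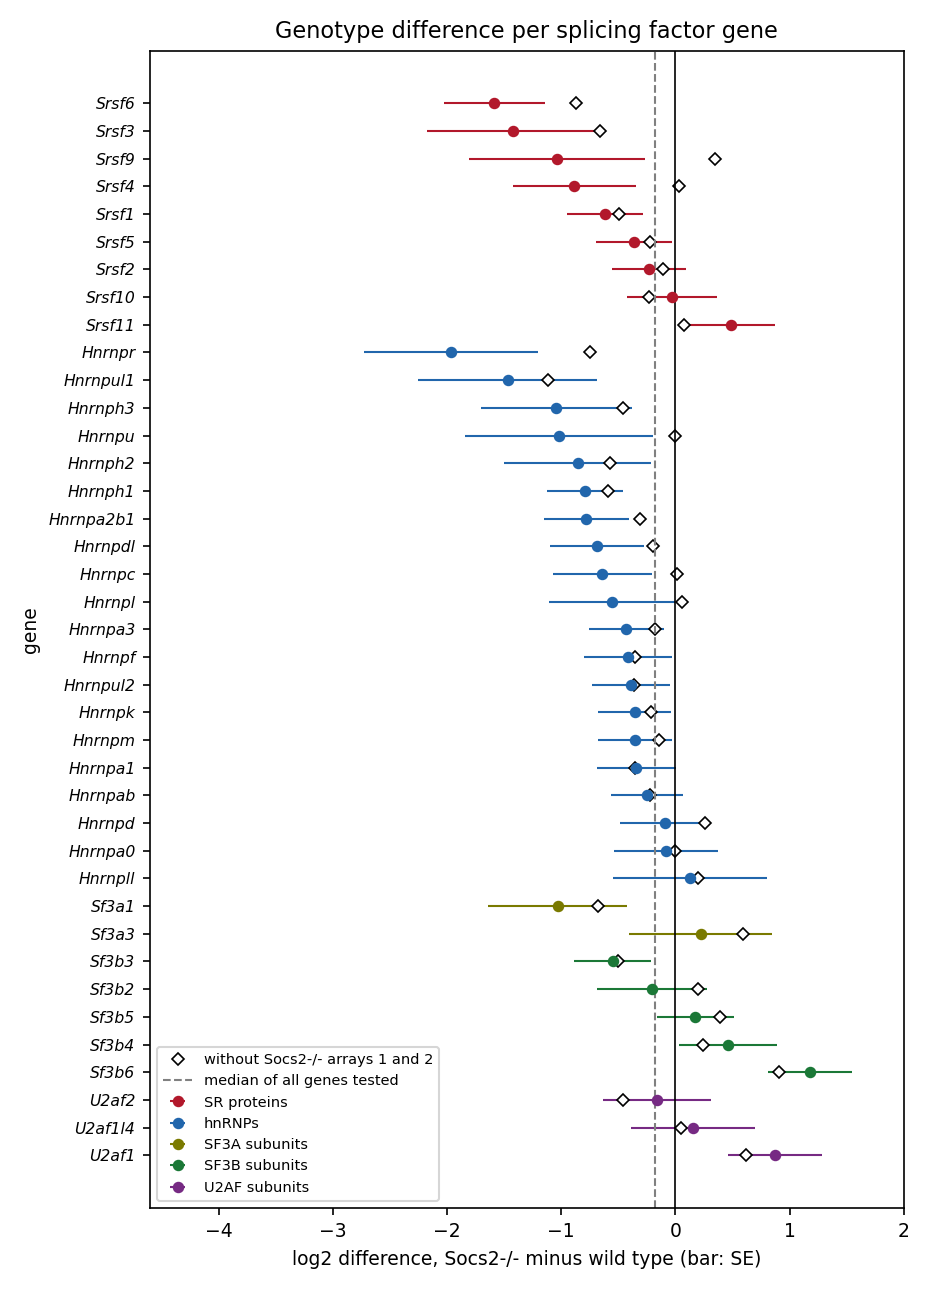
Log2 difference between Socs2-/- and wild-type arrays (x axis) for each of the 39 tested splicing factor genes (y axis, coloured by family), with bars of 1 SE; open diamonds leave out Socs2-/- arrays 1 and 2, and the dashed line is the median of all genes tested. The hnRNPs sit to the left of 0 except Hnrnpll, and Sf3b6 and U2af1 sit farthest to the right.

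None of the 39 members passed the adjusted threshold of 0.05 in limma, which 0.0117% of all genes passed (1 gene, Socs2). At an unadjusted p under 0.05, 3 members were lower (7.69%, against 7.87% of all genes) and 1 was higher (2.56%, against 2.29%), so these shares lay near the background. Genotypes did not overlap in 4 members that were lower (10.3%, against 2.72%) and in 1 that was higher (2.56%, against 0.983%). The total of 5 was 3 with quantile normalization, of which 2 were lower (5.13%, against 2.22%), and 1 with the mean of all probes of a gene. The variance was also modelled with both an intensity trend and robust estimation. In that model 1 member was higher at an unadjusted p under 0.05 (2.56%, against 2.24% of all genes), with 0 past the adjusted threshold. The lower members at an unadjusted p under 0.05 numbered 10 (25.6%, against 8.97%). Besides the 3 below they were Hnrnpa2b1, Hnrnpc, Hnrnpdl, Hnrnpk, Hnrnpm, Srsf1 and Sf3b3, named after their values were seen. Leaving out Socs2-/- arrays 1 and 2, 1 member was lower at an unadjusted p under 0.05, Srsf6 (2.56%, against 3.44% of all genes). In that reading 0 members were higher, against 2.96%. With no filter 8 of 42 members were lower (19.0%, against 4.83% of all genes) and 2 were higher (4.76%, against 3%). Among genes above 7.5 on all arrays 4 of 31 members were lower (12.9%, against 7.04%) and 2 were higher (6.45%, against 4.32%).

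Bright probes were frequent in the group. On all 9 arrays 79.5% of tested members were above 7.5, against 33.6% of all genes tested, and the median residual SD was 0.52 log2 units, against 0.92. The direction of the group was therefore also read on brighter genes alone. Of 22 SR protein and hnRNP genes above 7.5 on all arrays, 20 had a difference below 0, with a median of -0.38, against 52.2% and a median of -0.03 over the 2985 genes with such a probe. With no filter at all, 27 of 30 lay below 0 with a median of -0.49, against 51.1% and -0.0076 for 19057 genes.

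The size of the shift rested in large part on the pair of low-signal arrays. The median deviation of the 20 hnRNPs from each gene's own mean was -0.48 and -0.53 on Socs2-/- arrays 1 and 2, and 0.04 on each of arrays 3 and 4, against 0.09 to 0.46 on wild-type arrays. Over all genes tested the same measure was -0.24 and -0.39 on arrays 1 and 2, 0.10 and -0.03 on arrays 3 and 4, and 0.01 to 0.14 in wild type. For the 9 SR proteins it was -0.74 and -0.46 on arrays 1 and 2, and -0.11 and 0.05 on arrays 3 and 4, with wild-type arrays from -0.08 to 0.59. With arrays 1 and 2 left out, 22 of 29 SR protein and hnRNP genes remained below 0 with a median of -0.22, against 52.0% and -0.03 over all genes.

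**Figure D2:**
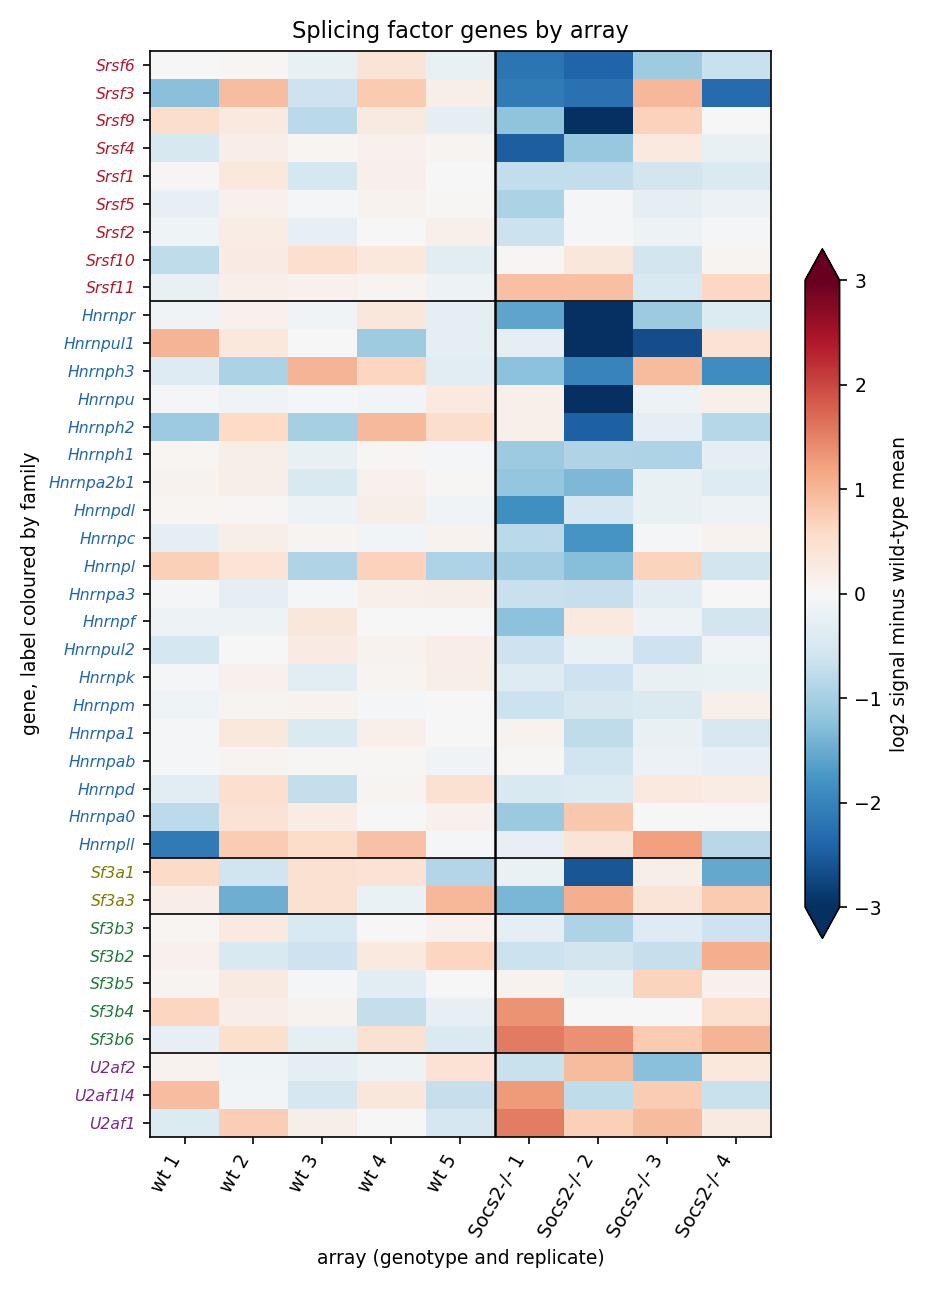
Signal of each tested splicing factor gene (rows, labels coloured by family) on each array (columns), as log2 signal minus that gene's wild-type mean, with blue lower and red higher; the colour scale ends at -3 and 3. Blue fills the SR protein and hnRNP rows mainly in Socs2-/- arrays 1 and 2. Array 2 holds 8 members at or below 7.5 (20.5%, against 36.6% of all genes tested).

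The signal of some members was not merely dimmer on Socs2-/- array 2 but at background. On that array 8 of 39 members read at or below 7.5: Hnrnph2, Hnrnph3, Hnrnpr, Hnrnpu, Hnrnpul1, Srsf3, Srsf9 and U2af1l4. The share was 20.5%, against 36.6% of all genes tested. On Socs2-/- array 1 the count was 1 (Srsf3, 2.56%), against 32.7% of all genes. On array 3 it was 0, against 14.6%, and on array 4 it was 3 (7.69%), against 18.5%. Across wild-type arrays U2af1l4 was the 1 member ever at that level, on arrays 3 and 5, against 14.8% to 17.2% of all genes. The SD among Socs2-/- arrays exceeded the SD among wild-type arrays in 32 of 39 members (82.1%), against 71.6% of all genes, with medians of 0.65 and 0.28.

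Among SR proteins, Srsf6 (also called SRp55, a regulator of exon inclusion) had the smallest p of the whole group. Its wild-type arrays read 11.48, 11.49, 11.24, 11.86 and 11.24, and its Socs2-/- arrays read 9.26, 9.06, 10.39 and 10.80. Every Socs2-/- value lay below every wild-type value, with arrays 1 and 2 lowest. The log2 difference was -1.58 (SE 0.44), with a limma unadjusted p of 0.0043 and an adjusted p of 0.312. It was -0.87 without arrays 1 and 2 (unadjusted p = 0.039), the genotypes still not overlapping. A second, dimmer Srsf6 probe (ILMN_1240406) differed by -0.05, and the mean of both probes by -0.82 (unadjusted p = 0.058).

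Srsf2, a founding SR protein (SC35), differed little. Its brightest probe read 12.47, 12.81, 12.35, 12.61 and 12.75 in wild type and 11.96, 12.53, 12.44 and 12.54 in Socs2-/-. The groups overlapped apart from the low value of Socs2-/- array 1. The difference was -0.23 (SE 0.32, limma adjusted p = 0.815), or -0.11 without arrays 1 and 2. Its other probes differed by 0.80 and 0.00098, and the mean of all 3 by 0.19, so no direction was settled.

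The remaining tested SR proteins had differences from -1.42 to 0.49. Srsf3, the smallest SR protein, had -1.42 (SE 0.76), or -0.66 without arrays 1 and 2, with Socs2-/- arrays at 6.89, 6.77, 10.02 and 6.70 against 7.76 to 9.93 in wild type. Its 3 low arrays were at background, and array 3 was above every wild-type array. The second Srsf3 probe was low on the same 3 arrays, reading 6.82, 7.05, 9.28 and 7.03, with array 3 within the wild-type range of 7.72 to 9.61. Srsf9 had -1.03, Srsf4 -0.89 and Srsf1, the splicing factor first known as SF2/ASF, -0.62, while Srsf5 had -0.36 and Srsf10, a repressor when it is dephosphorylated, -0.03. Without arrays 1 and 2 the differences of Srsf9 and Srsf4 turned to 0.34 and 0.03, whereas Srsf1 had -0.49, Srsf5 -0.22 and Srsf10 -0.23. The other Srsf10 probes lay between -1.93 and 0.45. Over all arrays Srsf1 read 11.82 to 12.13 in Socs2-/- and 12.03 to 12.89 in wild type. Srsf11 was the 1 SR protein above 0, at 0.49 (0.07 without arrays 1 and 2), and its other probes lay between -1.15 and 0.0096. Over the family 8 of 9 differences were below 0, and 6 of 9 with arrays 1 and 2 left out.

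Among hnRNPs, Hnrnph1, which binds runs of G and is a widespread regulator of exon choice, was lower with all 5 probes over all arrays. The brightest read 12.60, 12.73, 12.32, 12.58 and 12.52 in wild type and 11.47, 11.64, 11.64 and 12.29 in Socs2-/-. The genotypes did not overlap, although Socs2-/- array 4 came close to the lowest wild-type array. The difference was -0.79 (SE 0.33, limma unadjusted p = 0.036, adjusted p = 0.473), and -0.59 without arrays 1 and 2 (unadjusted p = 0.127).

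The other Hnrnph1 probes had differences of -1.60, -0.83, -0.75 and -0.75. Probe ILMN_1218767, with the widest gap, read 11.71, 11.78, 11.91, 11.52 and 11.96 in wild type and 10.03, 9.19, 10.77 and 10.73 in Socs2-/-. That probe was also fully apart between genotypes and was lower on arrays 3 and 4 as well. Probes ILMN_2684986 and ILMN_2684987 were above all wild-type values on Socs2-/- array 4, at 11.80 and 12.27. On array 3 they read 10.63 and 11.39, against wild-type means of 11.15 and 11.76. Arrays 3 and 4 thus lay on either side of the wild-type mean for these probes. Probes of a gene share the same RNA and are not replicates, and their sequences were not used here, so cross-hybridisation with the close paralogue Hnrnph2 was not checked.

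**Figure D3:**
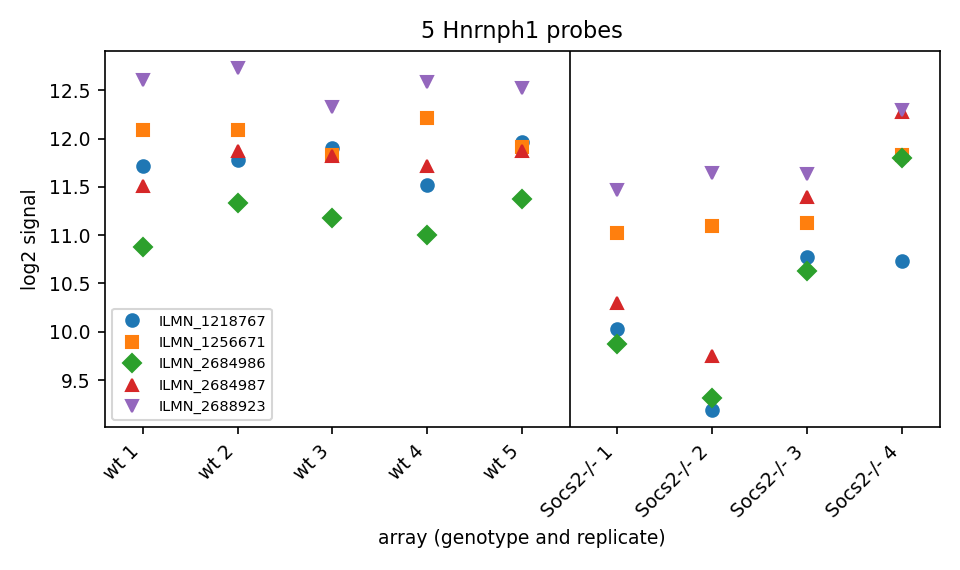
Log2 signal (y axis) of the 5 Hnrnph1 probes on each array (x axis), with a symbol per probe and a vertical line between the genotypes. All probes are lower on Socs2-/- arrays 1 and 2 than on every wild-type array, while on array 4 they spread from 10.73 to 12.29.

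Hnrnpr, an RNA-binding protein related to Syncrip, had a wide difference whose size rested largely on a single array. Wild-type arrays read 11.47, 11.70, 11.47, 11.90 and 11.31, and Socs2-/- arrays read 9.98, 6.79, 10.49 and 11.16. All Socs2-/- values were below all wild-type values, and array 2 was at background. The difference was -1.97 (SE 0.76, limma unadjusted p = 0.026, adjusted p = 0.454), or -1.03 without array 2 and -0.75 without arrays 1 and 2 (unadjusted p = 0.074). Another 2 probes above the minimum differed by -0.98 and -0.92, with overlapping genotypes. Among Socs2-/- arrays they were above 7.5 on array 3 alone, at 7.74 and 7.51. They met the minimum mainly through wild-type arrays, so the filter itself favoured a lower Socs2-/- reading on them.

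Hnrnpdl, a paralogue of the AU-rich element binding protein Hnrnpd, was also fully apart. It read 12.69, 12.68, 12.49, 12.81 and 12.53 in wild type and 10.80, 12.13, 12.41 and 12.48 in Socs2-/-. The gap between the nearest arrays was small, and array 1 carried most of the difference. That difference was -0.69 (SE 0.41, limma adjusted p = 0.581), -0.30 without array 1 and -0.20 without arrays 1 and 2. Its other 2 probes above the minimum had -1.08 and -0.61, with overlapping genotypes. The probe with -0.61 read 11.75 and 11.47 on Socs2-/- arrays 3 and 4, above every wild-type array (11.29 to 11.43). The probe with -1.08 read 9.27 and 7.99 on those arrays, inside the wild-type range of 7.92 to 10.68.

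The remaining hnRNPs ranged from -1.47 (Hnrnpul1, or -1.12 without arrays 1 and 2) to 0.13 (Hnrnpll, known for CD45 splicing in lymphocytes, or 0.20), and all but Hnrnpll lay below 0. The other Hnrnpul1 probes above the minimum had -0.07, -0.34 and 0.18, and the second Hnrnpll probe had -0.43. Hnrnpa2b1, which binds pre-mRNA and sorts microRNAs and mRNAs, had -0.78 (SE 0.37, limma adjusted p = 0.510), with 4 of its 5 probes below 0, and -0.31 without arrays 1 and 2. Hnrnpk, which binds C-rich RNA, had -0.36 and Hnrnpm -0.35, which were -0.21 and -0.15 without those arrays. Of the Hnrnpk probes above the minimum, 3 lay below 0 and 1 above. Hnrnpa1 had -0.34 and Hnrnpab -0.25, which moved less, to -0.35 and -0.22.

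Hnrnpab was fully apart once arrays 1 and 2 were left out, with arrays 3 and 4 at 12.96 and 12.89 and wild type from 13.04 to 13.24. The 5 members lower with no overlap in that reading were Hnrnpab, Hnrnpdl, Hnrnph1, Hnrnpr and Srsf6 (12.8%, against 5.57% of all genes), and Sf3b6 was higher with no overlap (2.56%, against 4.86%). Hnrnpu, a nuclear scaffold protein, showed the opposite case: its difference of -1.02 (0.04 without array 2) came from array 2 (7.17), the other Socs2-/- arrays reading 11.52, 11.22 and 11.53 against 11.25 to 11.67 in wild type. Hnrnpc, which binds runs of U and shields them from aberrant splicing, had -0.64 with arrays 1 and 2 (11.80 and 10.84) and 0.02 without them, and Hnrnpl, which binds CA repeats, had -0.55 and 0.05. The second Hnrnpl probe went the other way, at 1.26, with overlapping genotypes. Without arrays 1 and 2, 16 of 20 hnRNPs lay below 0, with a median of -0.21.

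**Figure D4:**
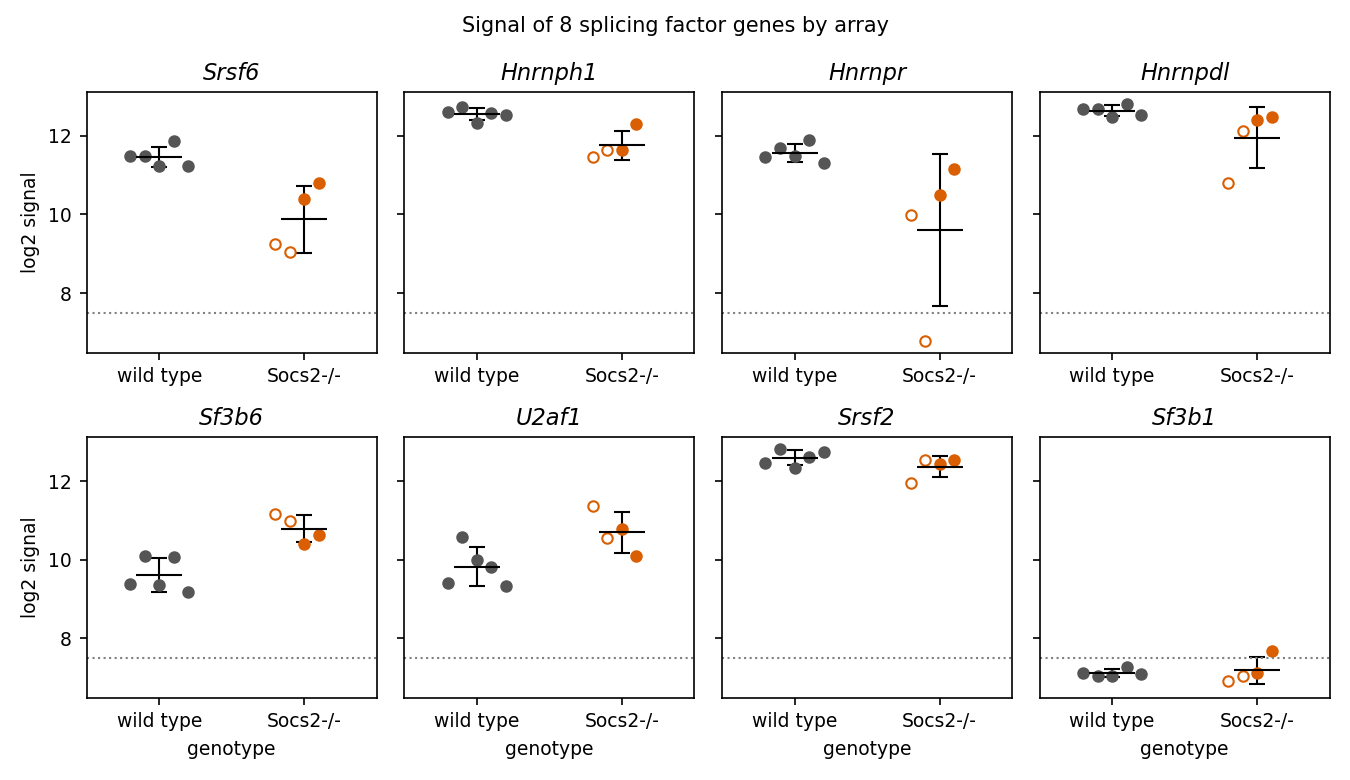
Log2 signal (y axis) of 8 splicing factor genes in wild-type (grey) and Socs2-/- (orange) arrays, each point an array, with Socs2-/- arrays 1 and 2 as open circles, horizontal lines for the mean and bars for 1 SD; the dotted line marks 7.5. Genotypes do not overlap in Srsf6, Hnrnph1, Hnrnpr, Hnrnpdl and Sf3b6, and Sf3b1 stays near the dotted line.

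Of the branch-site machinery, Sf3b6, the small SF3B subunit (p14) that contacts the branch-point adenosine, was the 1 member higher with no overlap. Wild-type arrays read 9.38, 10.10, 9.35, 10.06 and 9.19, and Socs2-/- arrays read 11.17, 10.98, 10.40 and 10.64. All 4 Socs2-/- arrays, the low-signal pair included, were above the highest wild-type array. The difference was 1.18 (SE 0.37), a 2.27-fold higher signal, with a limma unadjusted p of 0.0087 and an adjusted p of 0.390. With arrays 1 and 2 left out it was 0.91 (unadjusted p = 0.055), the genotypes still not overlapping, and with each array centred on its median 1.30. A second Sf3b6 probe above the minimum differed by 0.73, reading 9.91, 9.20, 7.92 and 8.32 in Socs2-/- against 7.68 to 8.73 in wild type. On that probe Socs2-/- arrays 3 and 4 lay inside the wild-type range. The 2 further Sf3b6 probes were near background.

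Sf3b1, the subunit that clamps the branch site, was not measurable here: its 1 probe read 7.04 to 7.28 in wild type and 6.91, 7.04, 7.12 and 7.69 in Socs2-/-, above 7.5 on 1 array. The other SF3B subunits had small differences. Sf3b3, a scaffold subunit, had -0.55 (SE 0.34), Sf3b2 -0.20, Sf3b5 0.17 and Sf3b4 0.46, with limma adjusted p from 0.586 to 0.895. Without arrays 1 and 2 these were -0.50, 0.20, 0.39 and 0.24, so that Sf3b2 changed sign. The second Sf3b3 probe had 0.07 and the second Sf3b5 probe above the minimum 0.85. Over SF3B, 3 of 5 tested members were above 0, or 4 of 5 without arrays 1 and 2.

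SF3A had 2 tested members of opposite sign, Sf3a1 at -1.03 (SE 0.61), or -0.52 without array 2 and -0.67 without arrays 1 and 2, and Sf3a3 at 0.22 (SE 0.63), or 0.59 without arrays 1 and 2, while a second Sf3a3 probe had -1.62. A second Sf3a1 probe, near background, had 0.03. The genotypes overlapped in both genes. Sf3a2 was above 7.5 on 1 array.

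U2af1, the small U2AF subunit that reads the AG at the 3′ splice site, was higher but short of the unadjusted threshold. It read 9.41, 10.57, 10.002, 9.83 and 9.33 in wild type and 11.37, 10.55, 10.79 and 10.11 in Socs2-/-. Wild-type array 2 lay within the Socs2-/- range, so the groups overlapped. The difference was 0.87 (SE 0.41, limma unadjusted p = 0.057, adjusted p = 0.503), and 0.62 without arrays 1 and 2. U2af2, the large subunit that binds the polypyrimidine tract, had -0.16, with all 3 probes between -0.17 and -0.08, and U2af1l4, a U2af1 paralogue near background, had 0.15; without arrays 1 and 2 these were -0.46 and 0.05. Zrsr2, the related factor of the minor spliceosome, was not analysed here.

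Probes of a member did not always share a sign. Of 32 members with several probes above the minimum, 20 had all probes on the same side of 0 and 12 had probes on both sides. Over all 93 member probes above the minimum, 70 differences lay below 0 and 23 above, with a median of -0.36, and 5 probes were lower and 1 higher with no overlap. Probes ILMN_1218767 and ILMN_2688923 of Hnrnph1 were both among those 5. These counts have no share over all probes beside them and none without Socs2-/- arrays 1 and 2. At the level of genes, 59.5% of all differences already lay below 0.

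The rest of the splicing pathway was read from 7 further lists holding 138 genes, of which 116 were tested. In these, unadjusted p-values under 0.05 were found for 14 genes that were lower and 3 that were higher, against 7.87% and 2.29% of all genes, and 0 passed the adjusted threshold. Regulators of exon choice stood with the SR proteins and hnRNPs. Of 14 SR-related proteins 13 were below 0 with a median of -0.79, or 9 of 14 and -0.13 without arrays 1 and 2. Of 31 other splicing regulators 25 were below 0 with a median of -0.53, or 25 of 31 and -0.21 without those arrays, and for 7 of them, all lower, the unadjusted p was under 0.05. Of 8 kinases of SR proteins 6 were below 0 with a median of -0.70, or 5 of 8 and -0.24.

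Core spliceosome lists lay nearer to 0. The median was -0.24 for 13 Sm and LSm proteins, -0.02 for 21 proteins of the U1, U2 and U4/U6.U5 snRNPs, -0.04 for 9 branch-site and 3′ splice-site factors and -0.0050 for 20 factors of the Prp19 complex and the catalytic steps. Without arrays 1 and 2 these were 0.08, 0.19, -0.03 and 0.09, against -0.03 for all genes. No difference between lists was tested.

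**Figure D5:**
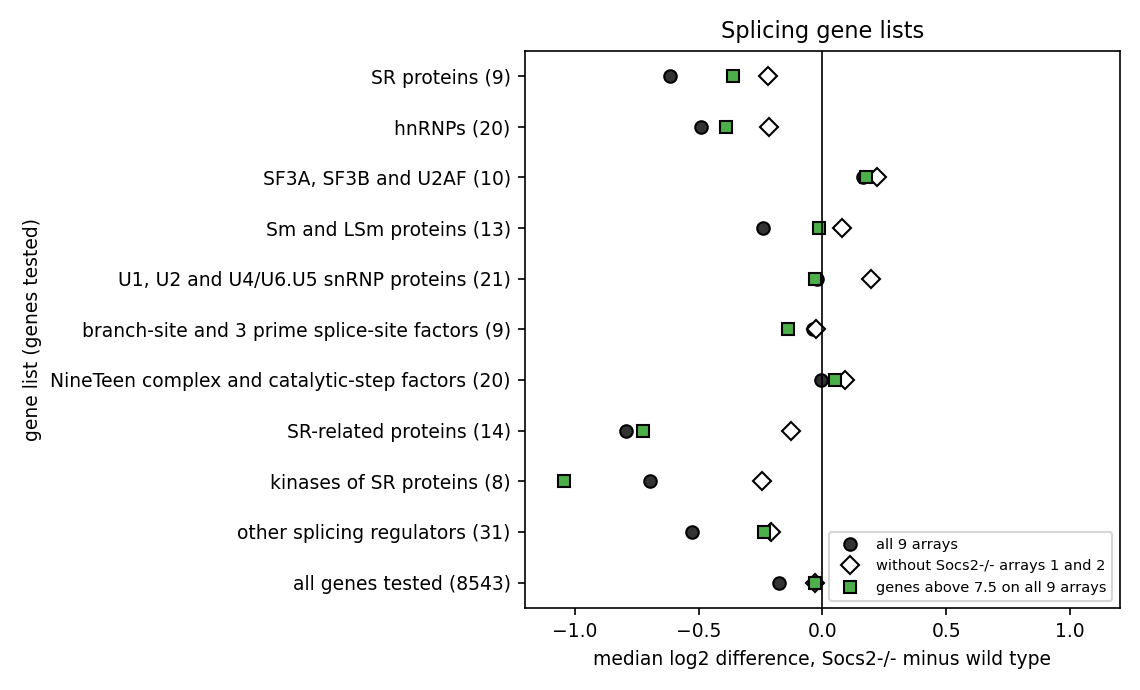
Median log2 difference between Socs2-/- and wild-type arrays (x axis) for each list of splicing genes (y axis, with the number tested), on all 9 arrays (filled circles), without Socs2-/- arrays 1 and 2 (open diamonds) and for genes above 7.5 on all arrays (green squares). Lists of regulators lie between -0.79 and -0.49 with all arrays, to the left of the core spliceosome lists, and between -0.24 and -0.13 without arrays 1 and 2.

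Among the other regulators, Mbnl2, a muscleblind protein that controls developmental exons, had -2.27 (SE 0.48, limma unadjusted p = 0.0006, adjusted p = 0.182). Mbnl2 differed by -1.58 without arrays 1 and 2, and its second probe above the minimum had -2.02. Tardbp, the TDP-43 protein that represses cryptic exons, had -1.36 (-0.92 without arrays 1 and 2) with 5 of 5 probes below 0. Celf2, a regulator of exon choice in lymphocytes, had -1.04 and -1.07, also with 5 of 5 probes below 0. The genotypes did not overlap in any of these 3 genes.

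In the other lists the named differences moved by unequal amounts when arrays 1 and 2 were left out, as given in parentheses. Among SR-related proteins, Scaf11 had -1.71 (-0.47 without arrays 1 and 2), Srek1 -1.63 (-1.03, and -0.80 without array 2 alone) and Pnn 1.29 (0.77). The SR protein kinase Clk4 had -1.88 (-0.41; -0.89 without array 1 alone). Of snRNP proteins, Prpf3 had 1.19 (1.15), with 4 of its 5 probes below 0, and Snrpb2, at or below 7.5 on every Socs2-/- array, was at least 1.49-fold lower. Snrpb2 met the minimum through wild-type arrays alone, so the filter itself favoured a lower reading, and it is among the lower genes counted above. Of the catalytic-step factors, Dhx38 had -1.46 (-0.62), Cdc40 0.998 (0.88) and Prpf18 -2.17, which shrank to -0.10. Their limma adjusted p lay between 0.428 and 0.482.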

How the data were processed

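The processed log2 values deposited by the authors were taken as they stand. The submitters' processing notes name lumi, with no version; how background, transformation and normalization were handled is not given. Dim probes pile up near an array's median (6.91 to 7.18), so their differences are compressed. A table of raw signals was not used, because its 18 columns carry chip positions that no label ties to a sample. Groups and replicate numbers came from the sample titles.

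Of 45281 probes, 34885 had 1 gene symbol, 18 several and 10378 none. A probe entered when it was above 7.5 on at least 4 of 9 arrays, and the one with the highest mean stood for its gene. Genotypes were compared with limma 3.58.1 in R 4.3.3 (moderated linear models, two-sided, p-values adjusted by Benjamini-Hochberg across 8543 genes, threshold 0.05). A value at or below 7.5 on all arrays of a genotype gives only a bound. All 42 symbols matched the gene table by Entrez identifier. Members, lists and tests were chosen with earlier results of these data known. Values by array are given for members under an unadjusted p of 0.05, members with no overlap, and Sf3b1, Srsf2 and U2af1; related lists name up to 3 genes with the smallest p.

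The number of arrays limits the precision. Data were simulated for 8543 genes with independent noise of each gene's residual SD, equal in both genotypes. At an adjusted p under 0.05 limma recovered 0 of 50 genes with a log2 change of 1, 19 of 50 at 2, 23 of 50 at 3 and 37 of 50 at 4. At an unadjusted p under 0.05 it found 17 of 50 at a change of 1. The changed genes came from all genes tested, whose median residual SD was 0.92, against 0.52 for members. These rates are therefore not those of the members. In the measured data the SD was larger among Socs2-/- arrays for 71.6% of all genes, with medians of 1.01 in Socs2-/- and 0.70 in wild type. The simulated noise, equal in both genotypes, did not reproduce this, so the rates are approximate for all genes too. Alternatives covered the filter, the minimum, the choice of probe, scaling, the variance model, array weights, a floor, a replicate block and arrays left out. Where the promoter table lists several starts of a gene, the first was used.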

Additional observations from a re-analysis of the deposited data

Results flagged for a closer look

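Within each genotype, the highest and lowest array of Socs2 and of each of the 39 tested members was compared with the nearest other array, by Dixon's ratio of gap to range. Of 80 such groups of 4 or 5 arrays 7 stood out, where chance alone gives about 4 (1 in 20). Hnrnpu read 7.17 on Socs2-/- array 2, against 11.22 to 11.53 on the other 3, and 11.67 on wild-type array 5, against 11.25 to 11.35. Srsf3 read 10.02 on Socs2-/- array 3, against 6.70 to 6.89. Sf3b2 read 11.60 on Socs2-/- array 4, against 9.81 to 9.95, and its difference of -0.20 became -0.64 without that array. Hnrnpa2b1 read 11.84 on wild-type array 3, against 12.35 to 12.49. Srsf4 read 11.35 on wild-type array 1, against 11.91 to 12.03. Socs2 itself read 10.36 on wild-type array 3, against 9.38 to 9.65.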

How the results depend on the processing

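The count of members past the adjusted threshold was 0 under every alternative run. The count at an unadjusted p under 0.05 (4: 3 lower, 1 higher) was 10 with no filter (8 and 2), 11 with the trend and robust variance model (10 and 1) and 1 without Socs2-/- arrays 1 and 2 (1 and 0). The higher count was 2 with values above 7.5 on all 9 arrays, with a minimum of 7.2, with median centring, with quantile normalization and with a floor at 7.5, and 0 with the replicate block. With single arrays left out the counts ranged from 2 to 9 in all, from 1 to 7 lower and from 1 to 2 higher, the highest being without Socs2-/- array 3 and the lowest without wild-type array 4. The count of members with no overlap (5) was 1 with the mean of all probes, 3 with quantile normalization and 5 to 9 with single arrays left out, highest without wild-type array 3. No share of all genes is given for single arrays left out or the mean of all probes. Those counts can therefore not be set against the background, which itself moved when arrays were removed. Without Socs2-/- arrays 1 and 2 the share of all genes with no overlap rose from 2.72% to 5.57% lower and from 0.983% to 4.86% higher. The median member difference (-0.39) ranged from -0.52 without Socs2-/- array 4 to -0.31 without array 2 and was -0.20 without Socs2-/- arrays 1 and 2. Socs2 lost the adjusted threshold with median centring (-2.84), the trend and robust model (-2.96, adjusted p = 0.243), a floor (-2.17), the replicate block (-2.97) and without Socs2-/- arrays 1 and 2 (-3.04), and ranged from -3.03 to -2.79 with single arrays left out; it could not be fitted among genes above 7.5 on all arrays. Over 7 named members and 146 refits, 121 kept direction and side of 0.05, 15 lost it, 9 gained it and 1 turned direction, Srsf2 with the mean of all probes (0.19). Hnrnph1 lost it in 10 refits, including without each of 7 single arrays, and U2af1 gained it in 8. The causes were not tested. Same-numbered arrays did not deviate together (correlations -0.07 to 0.04), so the replicate numbers were not treated as pairs, and under the replicate block 3 members were lower and 0 higher.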
